A study of Rattus norvegicus with 8 samples.

Results

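The long noncoding RNAs (lncRNAs) described here are the spliced NONCODE transcripts of rat liver whose loci overlap a gene. NONCODE is a catalogue of noncoding transcripts, and its rat entries carry identifiers that begin with NONRATT. A transcript was taken when its deposited locus shared at least 1 base with a locus of the gene table and when that locus was at least 50 bases longer than the transcript, which was read as splicing. This gave 16665 of the 31243 transcripts in the lncRNA table. The limit of 50 bases divided few transcripts: 220 members exceeded their length by 50 to 99 bases, with a median level of 15.2 FPKM among the 163 that were tested, and 55 transcripts with an excess of 1 to 49 bases were left out, with a median of 5.99 FPKM among the 30 tested. Levels are in FPKM, fragments per kilobase of transcript per 1000000 fragments.

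Livers came from wild type Sprague-Dawley rats, an outbred strain, kept either on normal chow (ND, 3 libraries, 8.5% of calories as fat) or on a high fat diet (HFD, 5 libraries, 41% of calories as fat). The labels give a feeding time of 24 weeks for the high fat diet and an age of about 22 weeks for every sample, and these statements cannot both hold for diets begun after birth. Each diet had 12 rats in the study, and the labels do not say whether a library holds the RNA of 1 rat or of several, so the tests measure the spread between these libraries, which may be technical in part. Sequencing depth fell into a deep set of 4 libraries, ND-1 and ND-3 with HFD-1 and HFD-2, whose gene counts summed to 30501673 to 36152937, and a shallow set of the other 4, with sums of 12678616 to 18401981. ND-2 is the ND library of the shallow set. The 10 hepatocyte markers summed to 64668 to 70508 FPKM on ND and 69781 to 72990 FPKM on HFD, and none was listed at 0. The 10 markers of Kupffer cells and macrophages summed to 279 to 398 FPKM on ND and 243 to 681 FPKM on HFD, and the 6 of lymphocytes and neutrophils to 7.98 to 22.6 and 6.52 to 46.1 FPKM, both highest in HFD-3. The markers of stellate cells summed to 74.3 to 119 FPKM on ND and 55.6 to 96.7 FPKM on HFD. Those of cholangiocytes summed to 5.65 to 9.95 and 4.46 to 8.06 FPKM, and both sums were highest in ND-2. Those of endothelial cells summed to 81.1 to 89.5 and 87.5 to 97.9 FPKM, highest in HFD-2. In bulk tissue, fewer cells of a type and less RNA per cell cannot be told apart.

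A lncRNA that overlaps a gene can be transcribed from the opposite strand, can start inside an intron, can share exons with the gene as a noncoding form of it, or can be the spliced host from which small RNAs are cut. Some such transcripts act on the gene they overlap, for instance by occupying its DNA or pairing with its messenger RNA, and others have no known role. The tables carry no strand, so none of these arrangements could be assigned, and reads of a lncRNA and of the gene over the same bases cannot be told apart.

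The deposited locus describes a region and not always a transcript. Among transcripts with a locus of their own, 48.5% had a locus as long as the transcript, against 0.652% (72 of 11035) of those that share a locus with another transcript. Of the 16665 members, 7998 had a locus of their own and 8667 shared theirs. For the latter, neither splicing nor the overlap is established for the transcript itself. The extreme was a region of chromosome 7 (144345120 to 145472893 in Rnor_6.0) that carried 36 members of 251 to 2813 bases over 36 genes.

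Members had a median length of 605 bases (quartiles 410 and 804), against 632 bases over all lncRNA transcripts. Their median locus was 6715 bases, and a locus longer than the transcript was set by the rule. By the deposited locus, 10233 lay inside the span of the gene with the longest overlap, 2040 contained it and 4392 overlapped it in part. Among the 7998 with a locus of their own, these counts were 6562, 156 and 1280, and the median locus was 3490 bases. All members together covered 11072 genes, of which 4941 were overlapped by 2 or more members. The longest overlap was under 50 bases for 27 members. Of all members, 3845 were listed at 0 in every library, 6512 reached a mean of 10 FPKM, 1577 reached 100 FPKM and 118 reached 1000 FPKM. The filter of at least 0.5 FPKM in at least 3 libraries passed 10962 members (65.8%), against 69.0% of the unspliced transcripts over genes and 31.4% of the spliced transcripts between genes. The median level of those that passed was 15.7 FPKM (quartiles 4.20 and 52.5), and a median of 18.5 fragments per library lay behind a member, so the lower members rest on a few fragments.

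In mammals many small nucleolar RNAs (snoRNAs, which guide the modification of ribosomal RNA) and microRNAs (which repress messenger RNAs through a short seed) are cut from the introns of spliced hosts. For 119 members, 28 of them with a locus of their own, every overlapped gene was a small RNA, and 58 of these were tested. A locus on chromosome 13 (78852519 to 78856208) carried 11 members over 10 snoRNA genes, among them SNORD44, SNORD47 and SNORD74, which in human lie in introns of GAS5. Its most abundant member, NONRATT008372.2, stood at 206, 188 and 281 FPKM on ND and at 233, 298, 260, 154 and 157 FPKM on HFD. A locus on chromosome 1 (224921324 to 224924000) carried 4 members over 8 snoRNA genes from SNORD22 to SNORD31, which in human lie in SNHG1, and its leading member NONRATT001502.2 stood at 63.9, 211 and 82.9 FPKM on ND and 66.5, 89.6, 247, 155 and 161 FPKM on HFD. For NONRATT001502.2 every shallow library exceeded every deep one. NONRATT001501.2, at the same locus, had the reverse order, with 56.1 to 64.3 FPKM in the shallow and 78.0 to 120 FPKM in the deep libraries. By contrast, the 17 members over 25 SNORD113 genes on chromosome 6 (133774616 to 133801417) did not exceed a mean of 0.264 FPKM, and 0 were tested.

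MicroRNA genes lay under 202 members, 78 genes in all, of which 58 were matched by symbol to RefSeq. The mature sequences that can be read from the loci with the leading such members follow, from RefSeq with the coordinates of GRCr8, written 5′ to 3′ with the seed (bases 2 to 8) in capitals. They are shown because the seed is the part of a microRNA that selects its targets.
rno-miR-22-3p: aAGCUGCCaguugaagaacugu
rno-miR-22-5p: aGUUCUUCaguggcaagcuuua
rno-miR-27b-3p: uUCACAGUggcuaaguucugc
rno-miR-23b-3p: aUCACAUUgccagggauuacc
The microRNA miR-22 is abundant in liver, and miR-23b and miR-27b are made from a common cluster. The seeds of the last pair share their first letters, UCACA. NONRATT004558.2 (1770 bases, chromosome 10, 62297514 to 62302054, a locus shared by 2 transcripts) has a locus that contains the Mir22 and Mir6326 genes and stood at 72.7, 99.6 and 75.9 FPKM on ND and at 84.4, 107, 77.1, 93.3 and 93.9 FPKM on HFD. NONRATT012182.2 (chromosome 17, 795753 to 825078, a locus shared by 6 transcripts) spans Mir23b, Mir27b and Mir3074 within the aminopeptidase gene listed as Npepo, and stood at 128, 80.5 and 118 FPKM on ND and 121, 125, 103, 116 and 86.0 FPKM on HFD. Both pairs of ranges overlapped. The mature microRNAs themselves were not measured here. Of the 100 tested members over microRNA genes, 2 were higher and 4 lower on HFD at an unadjusted p under 0.05 and 0 passed limma's adjusted threshold, with a median log2 difference of -0.03. Of the 58 tested members over small RNAs alone, 1 was higher and 0 lower at that level, and the median was 0.12. Over all 19799 tested transcripts 2.63% were higher and 2.58% lower at that level, and these counts of a few members are near it.

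Of the 10 most abundant members, most lay at loci of proteins that the liver secretes, and the others at RNase MRP, at cytochromes and at Bhmt. The highest was NONRATT023184.2 (275 bases, chromosome 5, 58994680 to 58997283), with a mean of 146888 FPKM over all libraries. Its locus starts at the gene of RNase MRP, the RNA of a ribosomal RNA processing enzyme (58994682 to 58994953, 272 bases), which stood at 4147 to 6116 FPKM in the gene table. The lncRNA thus has about the length of that small RNA, although its longest overlap is with Ccdc107. Its locus is shared with another transcript, so neither its splicing nor its overlap is established. NONRATT028409.2 followed, at 73750 to 150800 FPKM in a region of chromosome 8 with a urinary protein gene, LOC100360095. The others lay over Ahsg (fetuin A, a plasma glycoprotein), Mup5 (a major urinary protein), Hp (haptoglobin, which binds free haemoglobin), Ttr (transthyretin, a thyroid hormone and retinol carrier), Sepp1 (selenoprotein P, a selenium carrier), Cyp2c11 and Cyp2c13 (steroid hydroxylases, of a family whose reads are hard to assign) and Bhmt (which remakes methionine from homocysteine). The locus over Sepp1 also overlaps Ccdc152 (0.419 to 1.59 FPKM), and the locus over Mup5 also overlaps LOC100912565 (13.9 to 32.7 FPKM). NONRATT007135.2, inside Ahsg, stood at 111100, 78380 and 95280 FPKM on ND and 91970, 96470, 66000, 69330 and 70360 FPKM on HFD. NONRATT013687.2, inside Ttr, stood at 36700 to 44280 and 37180 to 55360 FPKM. NONRATT014267.2, inside Hp, stood at 54720 to 67880 and 48950 to 72060 FPKM. These ranges overlapped between the diets, as did those of all 10 of the most abundant members.

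The FPKM of the lncRNA and gene tables were taken to be on different scales. The divisor of each library's lncRNA FPKM was derived from the fragments, lengths and FPKM of transcripts of at least 2000 bases. It came to 1730901 to 3816443 fragments, close to the 1842534 to 4324863 fragments over lncRNAs alone. The divisor of the gene FPKM was not derived and was taken to be the gene total. On the deposited scales the median member was at 3.30 times the FPKM of its gene. Placed on that assumed gene scale, as fragments per kilobase per 1000000 gene counts, it was at 0.317 of it (quartiles 0.112 and 0.614, 9503 pairs). On this scale 796 members (8.38%) lay above their gene. Across the 9503 pairs the mean log2 levels of lncRNA and gene had a Pearson r of 0.61 and a Spearman rho of 0.59, and across the 4159 pairs whose lncRNA had a locus of its own, 0.71 and 0.70. These are descriptions across transcripts that share libraries and possibly reads. The spread between libraries of 1 diet was larger for lncRNAs than for genes, with a median SD of 0.44 against 0.21 on the log2 scale, and was 0.36 for the ratio of lncRNA to gene. Where both members of a pair reached 10 FPKM (3205 pairs) these values were 0.30, 0.19 and 0.21.

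**Figure D1:**
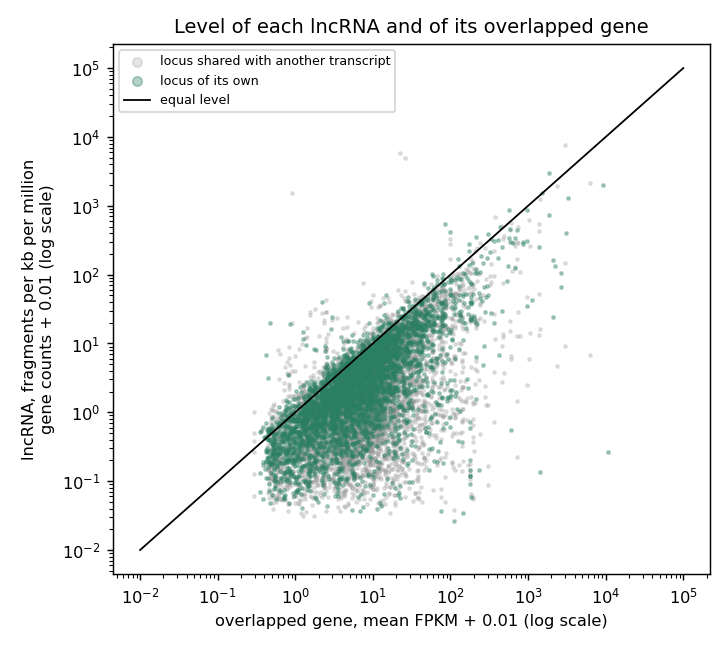
Mean level over 8 libraries of each tested lncRNA (fragments per kilobase per 1000000 gene counts, log scale) against that of its overlapped gene (FPKM, log scale), 9503 pairs; green points have a locus of their own and the line marks equal levels. Most points lie below the line, with a median ratio of 0.317, and 8.38% lie above it. The gene FPKM were taken to be divided by the gene total.

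The study asked which lncRNAs differ between the diets. Of the 10962 tested members, 1 passed limma's test on log2(FPKM + 0.5) at a Benjamini-Hochberg adjusted p under 0.05, where 0.0101% of all 19799 tested transcripts passed. It was NONRATT001594.2 (681 bases, chromosome 1, 238212161 to 238244014), which rose over Aldh1a1, the gene of a cytosolic enzyme that makes retinoic acid from retinal. The lncRNA stood at 114, 162 and 153 FPKM on ND and at 1010, 835, 1103, 603 and 633 FPKM on HFD. Every HFD library lay above every ND library, within the deep set and within the shallow set. The log2 difference was 2.52 ± 0.23 (SE, limma adjusted p = 0.00705), and within the depth sets it was 2.79 (deep) and 2.205 (shallow). Without ND-1 or without ND-3 it did not pass (adjusted p up to 0.120). Aldh1a1 itself stood at 18.9, 32.0 and 28.7 FPKM on ND and 188, 153, 205, 106 and 101 FPKM on HFD (log2 fold change 2.495 ± 0.29, edgeR adjusted p = 0.0579), so it missed the threshold in a test over 14148 genes. The ratio of the lncRNA to the gene was 5.48 ± 0.49 on ND and 5.63 ± 0.39 on HFD, a log2 difference of 0.06 ± 0.08 (limma adjusted p = 0.995). The locus is shared with NONRATT001595.2, which averaged 6.56 FPKM (log2 difference 2.87 ± 1.19, adjusted p = 0.915).

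**Figure D2:**
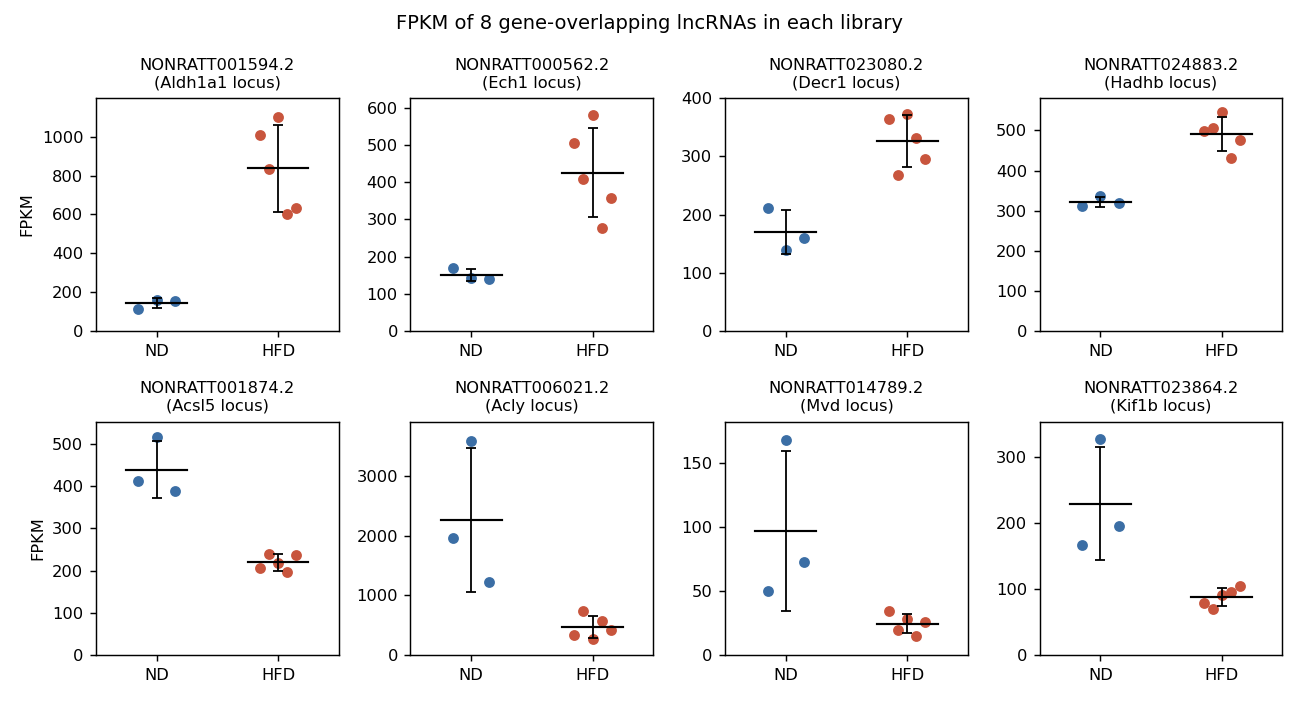
FPKM of 8 lncRNAs in the 3 ND and 5 HFD libraries; points are libraries, the bar is the mean and the whiskers are the SD. In each panel the diets do not overlap; of these lncRNAs NONRATT001594.2 over Aldh1a1 passed the adjusted threshold.

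Beyond this transcript, as many members stood out as in the table at large. At an unadjusted p under 0.05, 306 members were higher on HFD (2.79%, background 2.63%) and 270 lower (2.46%, background 2.58%). The diets' ranges did not overlap with HFD higher for 194 members (1.77%, background 1.68%) and with HFD lower for 207 (1.89%, background 2.14%). Among the 4900 tested members with a locus of their own, 139 were higher and 135 lower at an unadjusted p under 0.05 and 0 passed after adjustment. The members named below did not pass limma's adjusted threshold, and their values are given as measurements.

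**Figure D3:**
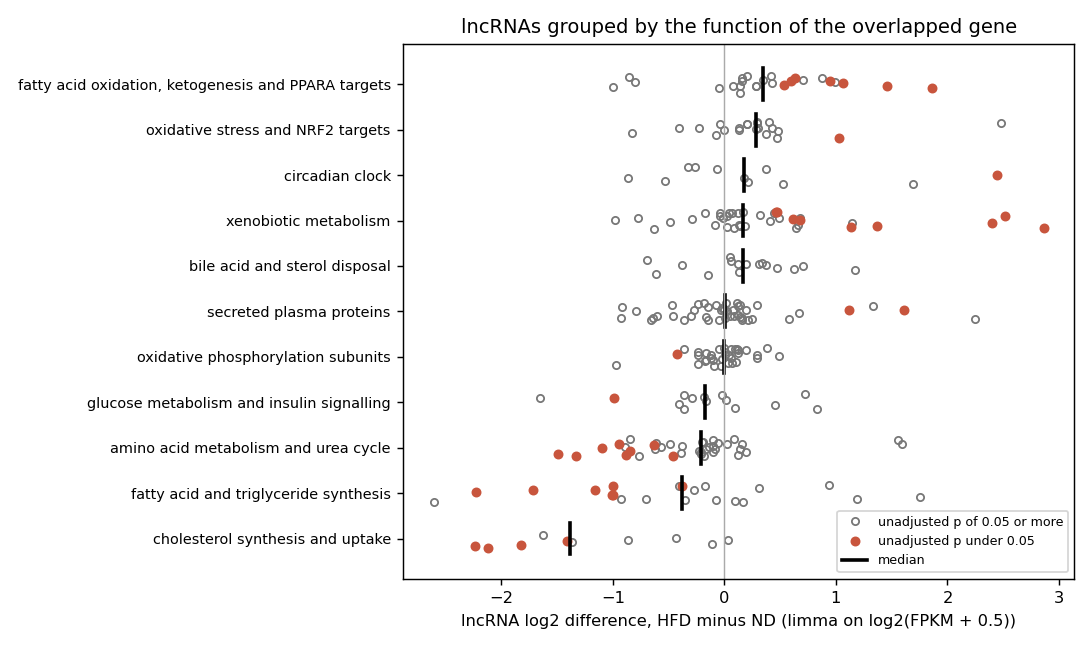
Log2 difference (HFD minus ND) of each tested lncRNA, grouped by the function of the gene with the longest overlap; filled points have an unadjusted p under 0.05 and bars are medians. Cholesterol synthesis lies furthest to the left (median -1.39) and fatty acid oxidation furthest to the right (median 0.34), against a median of -0.02 over all tested transcripts. The lists were chosen with earlier results of these data known.

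Members at loci of lipid synthesis were the lowest on HFD. SREBP factors are known to switch these genes on when sterols are scarce or insulin is high. Of 10 tested members over 7 genes of cholesterol synthesis and uptake, 0 were higher (background 2.63%) and 4 lower (40%, background 2.58%) at an unadjusted p under 0.05. The median log2 difference of the 10 was -1.39, against -0.02 over all tested transcripts. The 4 lay over Acat2, Mvd, Hmgcs1 and Insig1. Of the 8 genes of the list with a member, tested or not, 6 were themselves lower at an unadjusted edgeR p under 0.05 (background 2.83%). Among the 7 tested members with a locus of their own, 2 were lower (median -1.37). NONRATT014789.2, inside Mvd (mevalonate diphosphate decarboxylase), stood at 49.9, 168 and 72.6 FPKM on ND and at 34.6, 19.3, 27.9, 15.04 and 25.7 FPKM on HFD, without overlap and with ND-2 far above the rest. Its log2 difference was -1.83 ± 0.39 (limma adjusted p = 0.386), and that of Mvd was -1.98 ± 0.39 (edgeR adjusted p = 0.150). NONRATT002149.2, inside Acat2 (the cytosolic thiolase that begins sterol synthesis), stood at 33.9, 146 and 76.8 FPKM on ND and 19.6, 13.7, 28.5, 10.6 and 14.1 FPKM on HFD, again highest in ND-2 (-2.12 ± 0.45, adjusted p = 0.386).

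Of 21 tested members over 14 genes of fatty acid and triglyceride synthesis, 0 were higher (background 2.63%) and 7 lower (33.3%, background 2.58%) at an unadjusted p under 0.05. The 7 lay over Acsl5, Acly, Gpam, Thrsp, Srebf1 and Acsl4, and the median of the 21 was -0.38. Among the 11 with a locus of their own, 5 were lower (median -0.99). Acly is the ATP citrate lyase, which supplies acetyl-CoA to both pathways. NONRATT006021.2, inside it, stood at 1967, 3597 and 1223 FPKM on ND and 340, 740, 261, 572 and 422 FPKM on HFD (-2.23 ± 0.39, adjusted p = 0.278), and Acly had a log2 fold change of -2.41 ± 0.43 (edgeR adjusted p = 0.118). Acsl5 activates long-chain fatty acids, and all 3 of its members had lower fitted values. NONRATT001874.2 stood at 412, 516 and 389 FPKM on ND and 206, 240, 217, 196 and 237 FPKM on HFD (-0.99 ± 0.14, adjusted p = 0.164). NONRATT001876.2, in another part of the gene, stood at 888, 1186 and 873 FPKM on ND and 392, 473, 379, 381 and 581 FPKM on HFD (-1.16 ± 0.18, adjusted p = 0.199). In both, each HFD library was below each ND library, and Acsl5 itself had a log2 fold change of -1.09 ± 0.17 (edgeR adjusted p = 0.0851). ND-2 was the highest library in each lncRNA of lipid synthesis described here.

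Members at loci of fatty acid oxidation had a median above 0. PPARA, a receptor for fatty acids in hepatocytes, is known to induce these genes. Of 25 tested members over 18 genes, 7 were higher (28%, background 2.63%) and 0 lower (background 2.58%) at an unadjusted p under 0.05. The 7 lay over Ech1, Decr1, Hadhb and Crat, and the median of the 25 was 0.34. Among the 15 with a locus of their own, 1 was higher (the one inside Ech1) and the median was 0.16, so most of these counts come from transcripts that share a locus. NONRATT000562.2, inside Ech1 (an isomerase for unsaturated fatty acids), stood at 169, 143 and 139 FPKM on ND and 504, 409, 580, 277 and 359 FPKM on HFD (1.46 ± 0.23, limma adjusted p = 0.199). NONRATT023080.2, inside Decr1 (the reductase that acts with it), stood at 212, 139 and 160 FPKM on ND and 364, 269, 373, 331 and 296 FPKM on HFD (0.95 ± 0.17, adjusted p = 0.317). NONRATT024883.2, over part of Hadhb (the thiolase subunit of the trifunctional protein), stood at 312, 337 and 320 FPKM on ND and 498, 506, 547, 430 and 476 FPKM on HFD (0.60 ± 0.12, adjusted p = 0.354). All 3 had every HFD library above every ND library. Their genes had log2 fold changes of 1.33 ± 0.20 for Ech1, 0.77 ± 0.15 for Decr1 and 0.54 ± 0.12 for Hadhb (edgeR adjusted p = 0.0851, 0.139 and 0.279).

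The promoters of 4 genes under these lncRNAs are printed because they stand for the loci of retinoid metabolism, fatty acid oxidation and lipid synthesis at which the diets' lncRNA ranges did not overlap. They are RefSeq windows of GRCr8 from 250 bases before to 50 after the gene's start, read along the gene's strand. Capitals mark matches on either strand to CCAAT (bound by NF-Y), AGGTCA (the core bound by nuclear receptors) and CACGTG (the E box).
Aldh1a1 (chr1:227537370-227537669, plus strand): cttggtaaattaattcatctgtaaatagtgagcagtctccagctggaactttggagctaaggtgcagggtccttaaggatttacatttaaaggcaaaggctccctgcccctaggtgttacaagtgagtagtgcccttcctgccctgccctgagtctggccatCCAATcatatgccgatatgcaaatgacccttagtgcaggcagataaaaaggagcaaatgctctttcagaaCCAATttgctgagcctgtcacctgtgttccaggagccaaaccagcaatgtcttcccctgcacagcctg
Hadhb (chr6:31907451-31907750, minus strand): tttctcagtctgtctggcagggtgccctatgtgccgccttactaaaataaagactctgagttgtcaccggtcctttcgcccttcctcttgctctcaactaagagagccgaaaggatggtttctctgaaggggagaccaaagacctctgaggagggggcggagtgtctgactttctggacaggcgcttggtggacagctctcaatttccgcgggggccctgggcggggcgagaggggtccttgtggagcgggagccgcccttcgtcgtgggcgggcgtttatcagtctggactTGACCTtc
Acly (chr10:85963582-85963881, minus strand): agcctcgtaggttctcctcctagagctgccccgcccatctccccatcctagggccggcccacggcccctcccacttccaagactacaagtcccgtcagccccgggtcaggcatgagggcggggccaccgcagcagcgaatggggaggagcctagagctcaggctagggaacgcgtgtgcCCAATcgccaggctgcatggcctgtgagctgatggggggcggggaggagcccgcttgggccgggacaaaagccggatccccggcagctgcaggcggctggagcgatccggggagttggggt
Mvd (chr19:67414925-67415224, minus strand): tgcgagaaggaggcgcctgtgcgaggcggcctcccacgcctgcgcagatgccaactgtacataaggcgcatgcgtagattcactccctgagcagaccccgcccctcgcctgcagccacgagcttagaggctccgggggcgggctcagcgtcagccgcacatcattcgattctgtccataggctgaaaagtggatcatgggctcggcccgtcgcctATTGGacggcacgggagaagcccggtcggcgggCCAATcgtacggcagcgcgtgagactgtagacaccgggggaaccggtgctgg
CCAAT was found in Aldh1a1, Acly and Mvd, and in 37.5% of all 33469 promoters of the table. AGGTCA was found in Hadhb, as TGACCT on the strand printed, and in 16.2% of all promoters. CACGTG was in none of the 4 and in 6.42% of all. The direct repeat of AGGTCA with 1 base between its copies, bound by PPARA with RXR, was in none of the 4 and in 0.0538% of all, and the sterol element TCACNCCAC was in none of the 4 and in 1.12% of all. A match is a run of letters and not a measured binding site, and these motifs can lie outside the window.

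Of 37 tested members over 19 genes of xenobiotic metabolism, 9 were higher (24.3%, background 2.63%) and 0 lower (background 2.58%) at an unadjusted p under 0.05. The median of the 37 was 0.17. Among the 14 with a locus of their own, 2 were higher and the median was 0.049. The 9 lay over Aldh1a1, Gstm1, Ugt2b35 and the cytochromes Cyp2c6v1 and Cyp2c13. NONRATT016769.2, inside Gstm1 (a glutathione transferase), stood at 5569, 4617 and 4556 FPKM on ND and 7789, 6503, 7616, 9473 and 8141 FPKM on HFD (0.68 ± 0.18, limma adjusted p = 0.620). In the oxidative stress list (median 0.28), 0 of 21 tested members were lower (background 2.58%) and 1 was higher (4.76%, background 2.63%), near the background. This was NONRATT015751.2, inside Gclm (a subunit of the enzyme that limits glutathione synthesis), at 450, 576 and 503 FPKM on ND and 1569, 1306, 969, 856 and 690 FPKM on HFD (1.03 ± 0.25, adjusted p = 0.533). Within the depth sets it differed by 1.59 (deep) and 0.53 (shallow) on the log2 scale. NONRATT019395.2, inside Nfe2l2 (the factor NRF2), stood at 115 to 155 and 119 to 230 FPKM, with overlap (0.48 ± 0.24, adjusted p = 0.963).

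Of 38 tested members over 24 genes that handle amino acids or urea, 0 were higher (background 2.63%) and 8 lower (21.1%, background 2.58%) at an unadjusted p under 0.05. The median of the 38 was -0.21. Among the 25 with a locus of their own, 4 were lower and the median was also -0.21. The 8 lay over Bhmt, Prodh, Ass1, Cps1, Gls2 and Hpd. NONRATT019163.2, over part of Ass1 (argininosuccinate synthase of the urea cycle), stood at 5797, 5445 and 5764 FPKM on ND and 1734, 1787, 2581, 3430 and 4787 FPKM on HFD (-1.09 ± 0.32, limma adjusted p = 0.680). NONRATT015972.2, over part of Bhmt, stood at 34830, 6001 and 30880 FPKM on ND and 4796, 3718, 8964, 5558 and 14280 FPKM on HFD, so the ranges overlapped through ND-2. Within the depth sets its log2 difference was -2.96 (deep) and 0.57 (shallow). The sign of this member thus differed between the depth sets, and the shallow value rests on ND-2.

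The other lists held few members with a small p, at about the background of 2.63% higher and 2.58% lower or with too few members to set against it. Of 45 tested members at loci of secreted plasma proteins, 2 were higher and 0 lower at an unadjusted p under 0.05 (median 0.0031), the first NONRATT019887.2 inside Lbp, the gene of the lipopolysaccharide binding protein. It stood at 77.0, 77.5 and 70.1 FPKM on ND and 139, 133, 250, 146 and 172 FPKM on HFD (1.12 ± 0.21, limma adjusted p = 0.324), highest in HFD-3, where the macrophage and lymphocyte markers were also highest, and their part in it was not tested. The second, NONRATT017547.2 at C4a (complement C4), did not exceed 2.34 FPKM in any library. Of 14 members at glucose loci, 0 were higher and 1 lower (median -0.17), namely NONRATT018255.2 inside Pdk1, a kinase that restrains pyruvate dehydrogenase, at 110 to 178 FPKM on ND and 44.7 to 90.2 FPKM on HFD (-0.99 ± 0.25, adjusted p = 0.591). Of 34 at oxidative phosphorylation loci, 0 were higher and 1 lower, NONRATT003828.2 over Ndufb8 of complex I (291 to 320 against 212 to 266 FPKM), with a median of 0.0003. Of 16 at bile acid loci, 0 had an unadjusted p under 0.05 in either direction (median 0.17), and NONRATT028203.2 over Cyp8b1 stood at 0.425 to 0.754 FPKM on ND and 0.709 to 4.72 FPKM on HFD. Of 11 at clock loci, 1 was higher and 0 lower (median 0.18), namely NONRATT000709.2 inside Dbp, a clock output factor, which stood at 122, 57.3 and 1.63 FPKM on ND and 88.4 to 187 FPKM on HFD, so its difference rests on ND-3.

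The overlapped genes were compared in the same libraries, so the differences of lncRNA and gene are not independent. Of 6387 tested genes under a member, 0 passed edgeR's quasi-likelihood test (0.00707% of all 14148 tested genes passed), 175 were higher (2.74%, background 2.88%) and 181 lower (2.83%, background 2.83%) at an unadjusted p under 0.05, and DESeq2 called 45 of the 7527 for which it gave an adjusted p (0.598%, background 0.712%). The ratio of lncRNA to gene was tested in 9503 pairs, after the likely separate scaling of the tables was noted. In this test 0 pairs passed limma (0.0073% of all tested pairs), and 205 were higher (2.16%, background 2.14%) and 192 lower (2.02%, background 1.94%) at an unadjusted p under 0.05. After each library was centred on its median ratio, 0 passed and the counts were 209 and 200.

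**Figure D4:**
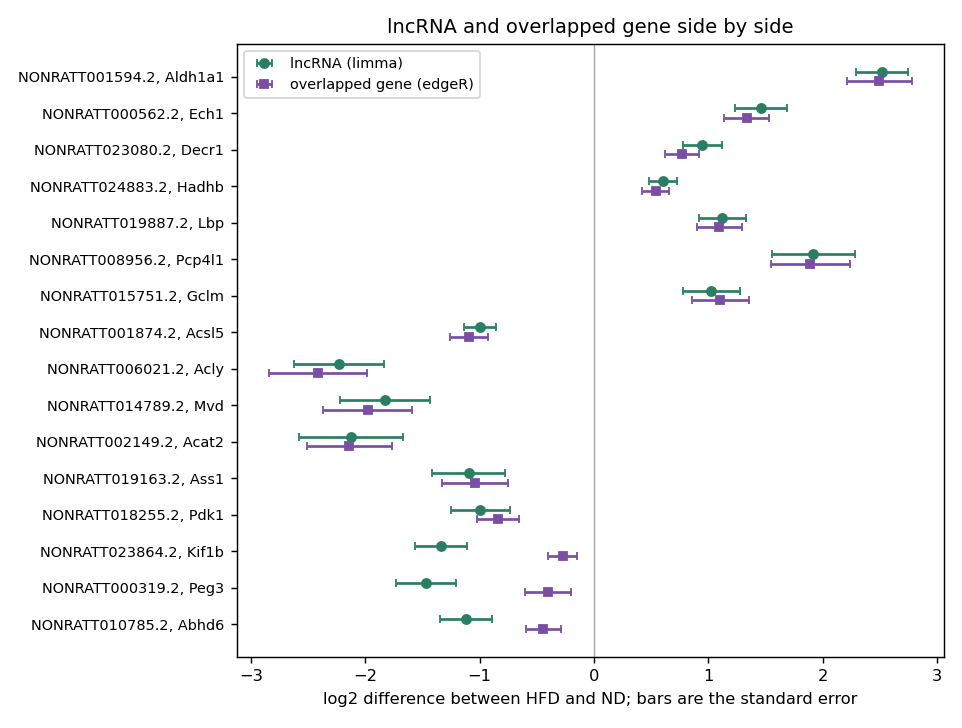
Log2 difference between HFD and ND of 16 lncRNAs (circles, limma) and of their overlapped genes (squares, edgeR), with standard errors. For Aldh1a1 the lncRNA and the gene stand at 2.52 and 2.495; for Kif1b, Peg3 and Abhd6 the lncRNA lies further from 0 than the gene (-1.34, -1.47 and -1.12 against -0.27, -0.40 and -0.44).

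Since 0 ratios passed, the loci that follow, chosen for a small p of the ratio or of the lncRNA, are given as values. NONRATT023864.2 (391 bases, chromosome 5, 165980528 to 165982295) lies inside Kif1b, the gene of a motor protein that carries mitochondria and vesicles along microtubules. It stood at 166, 327 and 195 FPKM on ND and 78.2, 69.2, 90.2, 95.4 and 104 FPKM on HFD (-1.34 ± 0.23, limma adjusted p = 0.269), every HFD library below every ND library. Kif1b stood at 17.2, 22.3 and 16.8 FPKM on ND and 16.5, 14.97, 14.1, 18.1 and 14.5 FPKM on HFD, with overlap (log2 fold change -0.27 ± 0.13, edgeR adjusted p = 0.907). The ratio was 12.0 ± 2.51 on ND and 5.64 ± 1.11 on HFD (-1.09 ± 0.18, limma adjusted p = 0.602), the smallest p of the ratio test among members. It was counted from 34 to 130 fragments per library, and its locus is shared by 2 transcripts. With the depth set as a covariate, both the lncRNA (-1.49) and the ratio of NONRATT023864.2 to Kif1b (-1.205) passed. NONRATT024307.2 at Ctage5, a cargo receptor at exit sites of the endoplasmic reticulum, with the snoRNA genes SNORA26 and SNORA27 in its locus, stood at 980, 771 and 761 FPKM on ND and 485, 443, 355, 504 and 477 FPKM on HFD. Ctage5 itself was at 126 ± 9.86 and 93.4 ± 10.7 FPKM (ratio difference -0.45 ± 0.09, adjusted p = 0.912).

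NONRATT000319.2 over part of Peg3, an imprinted zinc finger gene, was nearly constant on ND, at 53.3, 54.2 and 51.8 FPKM, and stood at 17.3, 26.5, 12.2, 17.2 and 24.7 FPKM on HFD. Peg3 was at 6.33 ± 2.11 and 4.89 ± 0.52 FPKM (ratio difference -1.16 ± 0.27, adjusted p = 0.995). NONRATT010785.2 inside Abhd6, a monoacylglycerol lipase, stood at 28.4, 37.01 and 29.5 FPKM on ND and 10.8, 14.5, 12.9, 17.4 and 16.2 FPKM on HFD, from 4 to 18 fragments per library, against 7.53 ± 1.51 and 5.57 ± 0.89 FPKM for Abhd6. Both lncRNAs had all HFD libraries below all ND libraries, while neither ratio passed. The lower direction also held NONRATT033598.1 and NONRATT028410.2, which share a region of chromosome 8 with the urinary protein gene LOC100360095. NONRATT033598.1 stood at 86.1 to 109 FPKM on ND and 58.4 to 92.2 FPKM on HFD, with overlap (ratio difference -0.93 ± 0.16, limma adjusted p = 0.677). NONRATT028410.2 stood at 1914 to 2615 FPKM on ND and 611 to 1967 FPKM on HFD (ratio difference -1.43 ± 0.31, limma adjusted p = 0.948), and its HFD values were 1914 and 1967 FPKM in the deep set and 611 to 901 FPKM in the shallow set.

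In the higher direction the ratio was led by NONRATT006925.2 inside C2cd2 and NONRATT012306.2 inside Sptlc1, a subunit of the enzyme that starts sphingolipid synthesis. The first stood at 55.3, 43.6 and 46.4 FPKM on ND and 98.3, 74.1, 98.5, 75.9 and 70.6 FPKM on HFD, while C2cd2 was at 15.7 ± 1.54 and 16.2 ± 0.68 FPKM (ratio difference 0.72 ± 0.14, adjusted p = 0.912). The second stood at 4.11, 3.94 and 4.80 FPKM on ND and 20.1, 14.7, 8.28, 11.2 and 13.8 FPKM on HFD, from 1 to 10 fragments per library, while Sptlc1 was at 7.24 ± 0.06 and 7.003 ± 0.49 FPKM (ratio difference 1.56 ± 0.31, adjusted p = 0.912). In both the lncRNA ranges did not overlap between diets and the gene ranges did. The other 3 leading in this direction, NONRATT018559.2 at Dtwd1, NONRATT015118.2 at Ankh and NONRATT012230.2 at Gkap1, stayed at or under 3.37 FPKM in every ND library.

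Some members were detected on 1 diet almost alone. NONRATT003647.2 (261 bases) inside Trpm3, a cation channel gene, was listed at 0 in all 3 ND libraries and stood at 3.60, 3.79, 7.35, 18.9 and 11.8 FPKM on HFD, but with at most 3.13 fragments in a library. NONRATT027109.2 inside Pla2g6, a phospholipase gene, was listed at 0 on ND and stood at 1.13 to 4.79 FPKM on HFD, with at most 2 fragments. NONRATT011808.2 inside Ccser2 stood at 5.44, 5.10 and 9.50 FPKM on ND and was listed at 0 in 4 HFD libraries, with at most 3 fragments. At this depth such patterns cannot be told from sampling of a few fragments. More fragments lay behind NONRATT008956.2 over part of Pcp4l1. This lncRNA stood at 5.84, 5.9998 and 6.16 FPKM on ND and 12.2, 19.7, 35.1, 36.1 and 26.3 FPKM on HFD (1.92 ± 0.36, limma adjusted p = 0.324). NONRATT004942.2 inside Adam11, which encodes a member of the ADAM family without protease activity, stood at 9.90, 16.1 and 3.85 FPKM on ND and 40.5, 30.3, 47.2, 27.2 and 50.7 FPKM on HFD (2.09 ± 0.41, adjusted p = 0.342). NONRATT006590.2 and NONRATT002183.2 lay over genes without a name. The first stood at 1.90 to 5.38 FPKM on ND and 7.93 to 20.6 FPKM on HFD, and the second at 29.1 to 55.0 FPKM on ND and 4.10 to 17.4 FPKM on HFD. In all 4 of these the diets' ranges did not overlap.

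NONRATT019959.2, taken from its number to be the Lnc19959.2 of the series title, is a member with a locus of its own inside Slc35c2, a sugar-nucleotide transporter gene (chromosome 3, 161802044 to 161803463). Further along the gene, NONRATT019960.2 and NONRATT019962.2 share a locus (161806156 to 161812259), and their levels had the same order of diets. The loci of all 3 lncRNAs also overlap Cdh22, and the ratio below was taken to Slc35c2 alone. NONRATT019959.2 stood at 28.8, 6.83 and 77.4 FPKM on ND and 151, 112, 160, 34.9 and 163 FPKM on HFD. NONRATT019960.2 stood at 70.8, 22.1 and 93.5 FPKM on ND and 237, 142, 273, 40.0 and 250 FPKM on HFD. NONRATT019962.2 stood at 38.0, 16.4 and 145 FPKM on ND and 211, 204, 236, 34.5 and 273 FPKM on HFD. In all 3, HFD-4 lay among the ND libraries and ND-2 was lowest. HFD-4 was the next lowest for NONRATT019960.2, NONRATT019962.2 and Slc35c2, whereas for NONRATT019959.2 ND-1 was. Their log2 differences were 2.10, 1.55 and 1.79 (limma adjusted p = 0.805, 0.917 and 0.931). By the exact permutation test over 56 arrangements (2-sided), the ratio of NONRATT019959.2 to Slc35c2 had a log2 difference of 0.19 (p = 0.536), against 2.10 for the lncRNA (p = 0.0536) and 1.91 for the gene (p = 0.0893). Adjusted over these 3 tests the values were 0.536, 0.134 and 0.134.

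**Figure D5:**
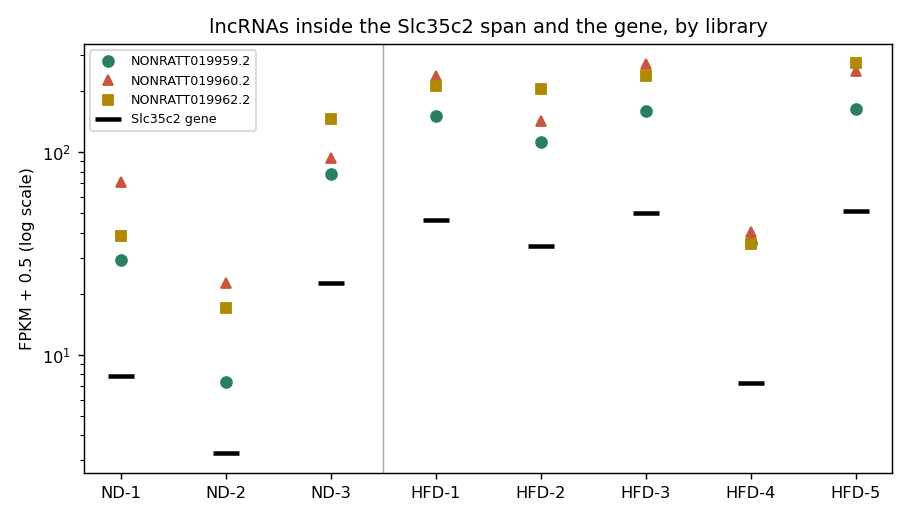
FPKM + 0.5 (log scale) in each library of the 3 lncRNAs inside Slc35c2 and of the gene (dashes). ND-2 and HFD-4 hold low values of the gene and of all 3 lncRNAs, and HFD-5 and HFD-3 hold high values of the gene and of all 3.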

How the data were processed

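The submitters' processing notes name the build Rnor_6.0 and, as tools, TopHat2 2.0.9, Cuffdiff and Cufflinks 2.2.1, without saying which of them made a column; whether strand was used is not stated there. Per the file headers and the labels, the gene table holds counts (whole numbers) with FPKM, and the lncRNA table holds FPKM with a signal, all deposited by the authors; 4 group means in the latter, whose headers do not name the diet, were not used. The signal was divided by the value of 1 fragment per library to give fragments. The lncRNA starts count from 0 and were shifted by 1 base.

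lncRNAs were tested with limma 3.58.1 (variance trend) on log2(FPKM + 0.5), a scale that understates the change of low transcripts, overlapped genes with edgeR 4.0.16 (TMM, filterByExpr) and log2 ratios with limma, 2-sided in R 4.3.3, on whole tables. Fits were tested on simulated data. The paired gene is the one with the longest overlap, with ties settled by the higher mean FPKM and then by the gene identifier. Members and gene lists (487 of 514 symbols found) were chosen with earlier results of these data known. Named members are up to 10 per direction by p without overlap between diets (mean of at least 1 FPKM), those that pass, the 10 with the highest level, 2 per list, 5 per direction of the ratio test and NONRATT019959.2. Genes listed by call within a list, the small RNA loci and NONRATT001595.2, NONRATT019960.2 and NONRATT019962.2 were chosen after their values were seen. Alternatives were other pseudocounts, filters, scalings, weights, DESeq2 1.42.0, a replicate block and leaving out each library. The fit on fragments, the depth set as a covariate for genes and ratios, centred ratios and members with a locus of their own were chosen after seeing the data.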

Additional observations from a re-analysis of the deposited data

Results flagged for a closer look

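Among the 106 series of HFD values behind the named lncRNAs and genes, 7 held a library far from the other 4, by the gap to its neighbour over the range of the group (Dixon's critical value 0.710); chance flags about 1 in 20 such groups. HFD-3 was the high sample for 3 genes. Hp stood there at 7873 FPKM, against 5840 to 6276 FPKM in the others. Cyp8b1, the enzyme that makes cholic acid, stood there at 246 FPKM, against 41.0 to 69.3 FPKM. RGD1562948, the gene over NONRATT002147.2, stood there at 0.854 FPKM, against 0.469 to 0.573 FPKM. HFD-5 was high for NONRATT006745.2 inside Prodh (proline dehydrogenase), at 484 FPKM against 222 to 290 FPKM, and for NONRATT012966.2 in the locus of Scgn, at 1.52 FPKM where the others did not exceed 0.000179 FPKM. HFD-4 was high for Abhd6, at 7.12 FPKM against 4.90 to 5.49 FPKM. HFD-2 held NONRATT011808.2 inside Ccser2 at 2.78 FPKM, where the others were listed at 0.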

How the results depend on the processing

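Of the differences printed for single lncRNAs, 762 values under the alternatives kept their direction and their side of the threshold, 1 newly passed (NONRATT023864.2, with the depth set as a covariate) and 3 no longer passed (NONRATT001594.2, with the replicate block, without ND-1 and without ND-3). For single genes, 331 values kept both and 20 newly passed. For single ratios, 180 values kept both, 1 newly passed and 1 changed direction. The count of passing members was 4 with no variance trend, 2 with the depth set as a covariate, 0 with the replicate block, 0 among members with a locus of their own, and 0 to 2 when a library was left out. Among members with a locus of their own, 139 were higher and 135 lower at an unadjusted p under 0.05, and edgeR on rounded fragments gave 185 and 145. Of the overlapped genes, 45 passed with DESeq2, 3 with no filter and 0 to 3 when a library was left out. For ratios 1 passed with the depth set as a covariate, 0 to 1 when a library was left out, and the lower count at an unadjusted p under 0.05 was 119 to 232 over those fits. The replicate numbers showed no consistent pairing of the libraries (correlations of same-numbered deviations -0.105 to 0.024 for lncRNAs and -0.275 to 0.111 for genes). Only replicate 1 in the genes exceeded its highest correlation with another number (0.111 against 0.0939). For NONRATT019959.2 the log2 difference ranged from 1.198 to 2.90 and for Slc35c2 from 1.23 to 2.63 without 1 library, and the ratio of NONRATT019959.2 to its gene ranged from -0.032, without ND-2, to 0.335, without ND-1. In each case the cause was not tested. The median of 18.5 fragments per library limits what can be said of the lower members.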
